A study of Hordeum vulgare with 10 samples.

Results

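The miR159 isomiRs of dry barley embryos were examined as a family of length variants of a single mature microRNA. All 6 rows whose name begins with miR159 were taken (miR159.1 to miR159.6), together with the predicted miRNA hvu-new80, whose counts repeat those of miR159.6. They make 7 of the 142 miRNAs in the table, of which 61 are known and 81 are predicted, and hvu-new80 was kept out of every family sum. The choice used names and a repeated count, not a difference between seed groups.

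Small RNA was sequenced from the dry embryo with its scutellum of barley (Hordeum vulgare) cv. Damazy, in 3 libraries per group and 25 seeds per replicate. The stored stocks had been kept from 1972 to 2018. The low-viability one (Lv) germinated at 2% and the high-viability one (Hv) at about 87%. Both go back to 1 seed lot held in separate flasks, whereas the non-stored group (Rc) was regrown in the field from Hv seeds. Replicates of a group thus come from 1 flask or harvest. Seed moisture, as reported in the paper, also differed between the groups, highest in Lv and lowest in Hv. Storage or viability cannot be told apart from flask, harvest or moisture. Lv and Hv jointly are called stored seeds. The labels name 10 samples because Rc replicate 1 was run a second time, and which run its count column holds is not known here. Lv was sequenced wholly in run 2, Rc replicates 2 and 3 and Hv replicates 1 and 2 in run 1, and Hv replicate 3 in run 2.

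miR159 is a conserved plant microRNA that pairs with transcripts of GAMYB transcription factors and leads to their cleavage. In the cereal grain, GAMYB carries the gibberellin signal to the genes of hydrolytic enzymes such as alpha-amylase, and in Arabidopsis thaliana the miR159 targets MYB33 and MYB101 take part in the abscisic acid response of germinating seeds. A mature plant microRNA is cut from a hairpin by DICER-LIKE1. An isomiR is a variant of it that starts or ends at another base. The 5′ end sets the seed and so the register of pairing, whereas the 3′ end carries a methyl group, which in A. thaliana protects it from trimming and tailing.

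The sequences show which end each isomiR lacks. They were read from the study's supplementary tables, in which the forms named miR159a.1, miR159a.2, miR159a.4 and miR159a.5 were taken as the rows with the same number, and that of miR159.6 is the sequence listed for hvu-new80, written with U. The sequence of miR159.3 was not at hand, so which end it lacks could not be read. Over all known miRNAs, the paper reports isomiRs as mainly 3′-trimmed, which makes the 3′ end the likely one for this frequent form. Bases 2 to 8, the seed, are in capitals, each 5′ to 3′.
miR159.6: uUUGGAUUgaagggagcucug
miR159.5: uUUGGAUUgaagggagcucu
miR159.4: uUUGGAUUgaagggagcuc
miR159.2: uUGGAUUGaagggagcucug
miR159.1: uGGAUUGAagggagcucug

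miR159.6 is the 21-nt form. The 20-nt miR159.5 and the 19-nt miR159.4 lack 1 and 2 bases at the 3′ end and keep the seed UUGGAUU. At the 5′ end, 1 base is missing from the 20-nt miR159.2 and 2 from the 19-nt miR159.1, which moves the seed to UGGAUUG and GGAUUGA. The site of barley GAMyb listed for these isomiRs was the same in 2 transcripts, a complete and a partial one. It is shown, 5′ to 3′, because it bears on what each trimmed base does in pairing.
GAMyb site: uggagcucccuucacuccaag

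Against these 21 bases, miR159.6 forms 17 Watson-Crick pairs, 3 G:U wobbles and 1 mismatch. The mismatch lies at base 7 of miR159.6, inside the seed, and the wobbles at bases 1, 20 and 21. Thus miR159.5 keeps 17 Watson-Crick pairs with 2 wobbles, and miR159.4 keeps 17 with 1 wobble. Both of these 3′-trimmed forms lack only wobbles at this site. miR159.2 also keeps 17 Watson-Crick pairs, with 2 wobbles, and miR159.1 keeps 16. The pairing was counted from the letters alone, and cleavage was not measured here.

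The predicted miRNA hvu-new80 was placed by the authors at 4 loci on chromosome 3H of the barley build IBSC_v2. The mature sequence is listed at 14301604 to 14301624, 14332667 to 14332687 and 14502427 to 14502447 on the plus strand and at 14415490 to 14415510 on the minus strand, which spans 200823 bases from the first start to the last. Hairpin boundaries in the same list lie 1 base lower than these positions imply, so the positions may be off by 1, and whether the loci lie in annotated genes was not analysed here. The loci share 2 hairpin sequences, printed because every count of hvu-new80 rests on them, with the mature part in capitals. The first, of 211 bases, occurs at 3 loci and the second, of 205 bases, at the locus that starts at 14332667.
Hairpin of 3 loci: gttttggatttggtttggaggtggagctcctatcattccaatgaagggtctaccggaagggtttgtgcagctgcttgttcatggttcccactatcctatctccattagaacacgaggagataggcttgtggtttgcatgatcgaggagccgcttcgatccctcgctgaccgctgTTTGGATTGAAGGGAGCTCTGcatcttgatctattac
Hairpin of 1 locus: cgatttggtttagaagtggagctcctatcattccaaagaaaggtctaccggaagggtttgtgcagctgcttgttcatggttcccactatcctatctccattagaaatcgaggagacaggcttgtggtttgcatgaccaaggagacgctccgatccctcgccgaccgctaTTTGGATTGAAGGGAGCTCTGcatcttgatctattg

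When aligned, the hairpins are identical at 190 bases, with 15 mismatches and 6 gap bases (90.0% identity). The mature part is the same in both and lies in the 3′ arm, at bases 175 to 195 of the first hairpin and 170 to 190 of the second. For the first, a strand from the opposite arm (miRNA*) was listed in 2 lengths, of which the 21-nt one starts at base 24.
miRNA*: gagctcctatcattccaatga

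In the table, hvu-new80 had exactly 4 times the count of miR159.6 in 9 of 9 libraries, 25504 counts in total against 6376. The factor equals the number of loci, so that hvu-new80 holds no measurement beyond miR159.6 and is given no test of its own. It nevertheless made up 22.4% to 31.3% of all counts of a library. With the 6 isomiRs added, 33.7% to 44.2% of all counts of a library came from these rows. Library totals ran from 3966 to 19542 counts and known miRNAs from 940 to 4407, so that depth limits the less frequent isomiRs. Wilson intervals below cover counting error only, and the reads carry no molecular identifiers. Intervals of log2 differences also include the spread between replicate libraries.

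The family held 10502 counts in 9 libraries. Replicates 1 to 3 of Rc held 904, 681 and 2203 of them, those of Lv 447, 1341 and 1431 and those of Hv 486, 998 and 2011. As a part of all known miRNAs this was 49.3%, 39.1% and 50.0% (Rc), 47.6%, 53.8% and 53.6% (Lv), and 48.0%, 47.6% and 52.1% (Hv). The groups overlap, with Rc replicate 2 the lowest library. The mean was 46.1% ± 6.07 (SD, n = 3) in Rc and 50.4% ± 3.05 (SD, n = 6) in stored seeds, a difference of 4.29 percentage points that was within the spread between replicates (two-sided exact permutation p = 0.179, adjusted p = 0.536 over 9 families).

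The 21-nt miR159.6 was the most frequent form, with 60.7% of the family's counts. Its counts were 564, 465 and 1433 for Rc, 222, 768 and 878 for Lv and 259, 675 and 1112 for Hv. It ranked first among the known miRNAs in every one of the 9 libraries. miR159.3 followed with 2346 counts (22.3%). Its counts were 191, 112 and 430 for Rc, 105, 349 and 302 for Lv and 128 and 570 for Hv replicates 1 and 3, with 15.9% of the 998 family counts in Hv replicate 2. It ranked between 3 and 5 among known miRNAs.

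The forms known here to be 3′-trimmed came next. miR159.5, which lacks the last base, was counted 89, 67 and 252 times in Rc, 94 and 177 times in Lv replicates 1 and 3, and 72, 129 and 237 times in Hv. In Lv replicate 2 it took 11.6% of the 1341 family counts, and in all it had 1273 counts (12.1%). miR159.4, which lacks the last 2 bases, was counted 58, 37 and 86 times in Rc, 26, 67 and 73 times in Lv and 27, 34 and 91 times in Hv, in total 499 (4.75%). The order miR159.6, miR159.3, miR159.5, miR159.4 held in 9 of 9 libraries. The closest neighbours were miR159.3 and miR159.5, with a ratio of counts from 1.12 to 2.41, and the lowest of these ratios was in Lv replicate 1. The ratio of miR159.5 to miR159.4 ran from 1.53 to 3.79.

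Among the isomiRs with a sequence here, forms trimmed at the 5′ end were almost absent. miR159.2 was counted 2, 0 and 2 times in Rc, 0, 1 and 1 times in Lv and 0, 0 and 1 times in Hv, while miR159.1 had 1 count, in Hv replicate 2. Together they made 8 of 10502 counts, or 0.0762% of the family (95% Wilson interval 0.0386 to 0.150%). The 3′-trimmed miR159.4 and miR159.5 together held 1772 counts, or 16.9% (95% Wilson interval 16.2 to 17.6%). The 22.3% in miR159.3 was counted at neither end, because its sequence was not read. The paper reports 5′-trimmed and two-side trimmed forms as rare among all known miRNAs. A form as frequent as miR159.3 is thus most likely 3′-trimmed, and the 16.9% is then too low. Both 5′-trimmed isomiRs were below the 10 counts set as the minimum and were not tested, and differences between groups in them were not detectable at this depth.

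**Figure D1:**
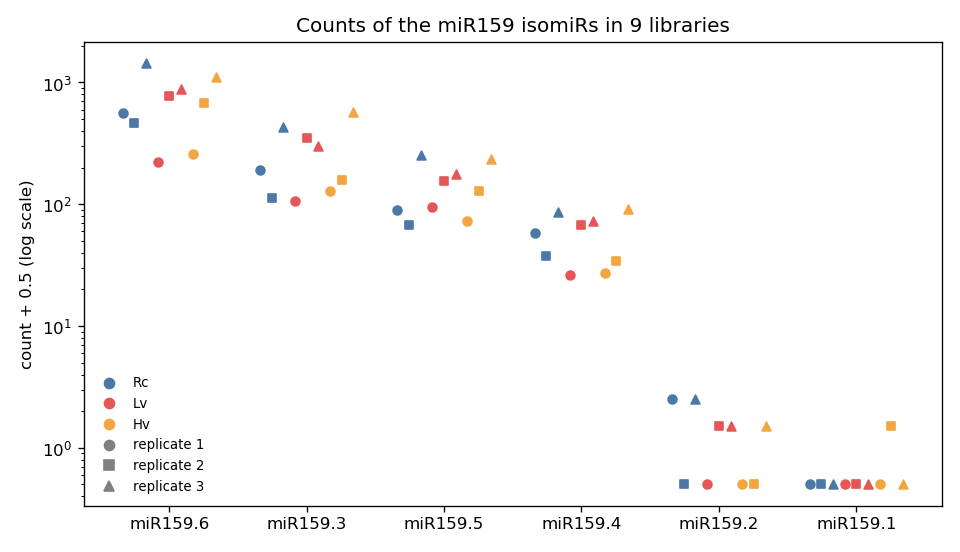
Counts of each miR159 isomiR in each library, with 0.5 added, on a log scale (x axis isomiR, y axis count). Colours are groups and symbols replicates. miR159.6 lies highest in every library and miR159.1 and miR159.2 never exceed 2 counts.

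The levels of the isomiRs were then compared between groups, the question the study put to all miRNAs of these seeds. The authors used miR159 as 1 of 3 references in RT-qPCR, which gives the stability of its forms a practical side. Levels are counts per 1000000 (CPM) after TMM scaling, over the 99 miRNAs with at least 10 counts, and 4 of the 6 isomiRs and hvu-new80 passed this minimum. Because hvu-new80 counts miR159.6 again 4 times, CPM values of both are relative to a total that contains these repeats.

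miR159.6 hardly differed between group means. Its level was 66486, 61314 and 81956 CPM in the Rc libraries, 48017, 78399 and 85471 CPM in those of Lv and 56740, 69719 and 87488 CPM in those of Hv. All 3 groups overlap, and the lowest library, Lv replicate 1, and the highest, Hv replicate 3, were both from stored seeds. The log2 difference of stored seeds from Rc was 0.02 with a standard error of 0.21 (95% interval -0.47 to 0.51, edgeR quasi-likelihood test, Benjamini-Hochberg adjusted p = 0.992). Its sign is not determined, as it became -0.05 with known miRNAs only and -0.32 with library sizes from mapped reads. A change of up to about the ends of that interval cannot be told from none here.

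For the 20-nt miR159.5, stored seeds stood above most Rc libraries. Its level was 10492, 8834 and 14412 CPM in the Rc libraries, 20332, 15925 and 17231 CPM in those of Lv and 15773, 13324 and 18646 CPM in those of Hv. Hv replicate 2 lay below Rc replicate 3, so that stored seeds and Rc overlap. The log2 difference of stored seeds from Rc was 0.58 with a standard error of 0.21 (95% interval 0.10 to 1.06). It did not pass after adjustment (edgeR quasi-likelihood test, Benjamini-Hochberg adjusted p = 0.377). Of the 99 miRNAs tested, edgeR called 0% in this comparison, and 3.03% were higher in stored seeds at an unadjusted p under 0.05. With DESeq2, the same counts gave a log2 difference of 0.62 and an adjusted p of 0.0225, so that miR159.5 was 1 of 3 miRNAs called (3.03% of 99). The other 2, hvu-new2 and hvu-new60, were predicted ones.

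The call thus depends on the tool. The study, also with DESeq2, reported only hvu-new2 and hvu-new60 as significantly different between regenerated and stored seeds, and not miR159.5. The settings of the 2 DESeq2 runs were not compared. In edgeR, the adjusted p of miR159.5 ran from 0.150 to 1.00 over the other alternatives, and its log2 difference from 0.21 to 0.75. With DESeq2 included, it was higher in stored seeds in 17 of 17 alternatives. The lowest value, 0.21, came with library sizes from mapped reads, and the next, 0.30, with the sequencing run as a covariate, a fit without Rc replicate 1. In that fit only Hv was sequenced in both runs, so that group and run can hardly be told apart.

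Taken group by group, miR159.5 stood 0.66 higher in Lv than in Rc on the log2 scale (95% interval 0.10 to 1.22, edgeR adjusted p = 0.466) and 0.50 higher in Hv than in Rc (95% interval -0.06 to 1.06, edgeR adjusted p = 0.671). Both comparisons share the Rc libraries. With library sizes from mapped reads these differences were 0.27 and 0.16, and with the run as a covariate 0.27 and 0.34. That in Hv was 0.29 without Hv replicate 3. edgeR called 0% of 99 miRNAs in either. DESeq2 called 2.02% in Lv against Rc, among them miR159.5 (log2 difference 0.75, adjusted p = 0.0196), and 1.01% in Hv against Rc, where miR159.5 was not called (0.50, adjusted p = 0.453). Between Lv and Hv, which differ in germination, the log2 difference was 0.16 (95% interval -0.40 to 0.72, edgeR adjusted p = 0.986), from 0.044 to 0.33 when 1 library was left out, and both tools called 0%.

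miR159.3 had 22516, 14768 and 24593 CPM in the Rc libraries, 22711, 35627 and 29399 CPM in those of Lv and 28041, 16423 and 44846 CPM in those of Hv. The highest library was Hv replicate 3 and the next-lowest Hv replicate 2, so that Hv spanned nearly the whole range. The log2 difference of stored seeds from Rc was 0.52 with a standard error of 0.32 (95% interval -0.20 to 1.24, edgeR adjusted p = 0.704), within the spread between replicates. It was 0.24 without Hv replicate 3, 0.33 without Rc replicate 2 and 0.15 with library sizes from mapped reads, and it turned to -0.12 with run as a covariate.

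miR159.4 had 6837, 4879 and 4919 CPM in the Rc libraries, 5624, 6839 and 7106 CPM in those of Lv and 5915, 3512 and 7160 CPM in those of Hv. The groups overlap throughout. The log2 difference of stored seeds from Rc was 0.12 with a standard error of 0.29 (95% interval -0.55 to 0.78, edgeR adjusted p = 0.936), and its sign changed in 4 of 17 alternatives. Between Lv and Hv, the differences of miR159.3, miR159.4 and miR159.6 were -0.03, 0.24 and -0.01 on the log2 scale, with 95% intervals of -0.86 to 0.81, -0.53 to 1.01 and -0.58 to 0.55. That of miR159.4 was 0.0019 without Hv replicate 2 and 0.51 without Hv replicate 3.

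**Figure D2:**
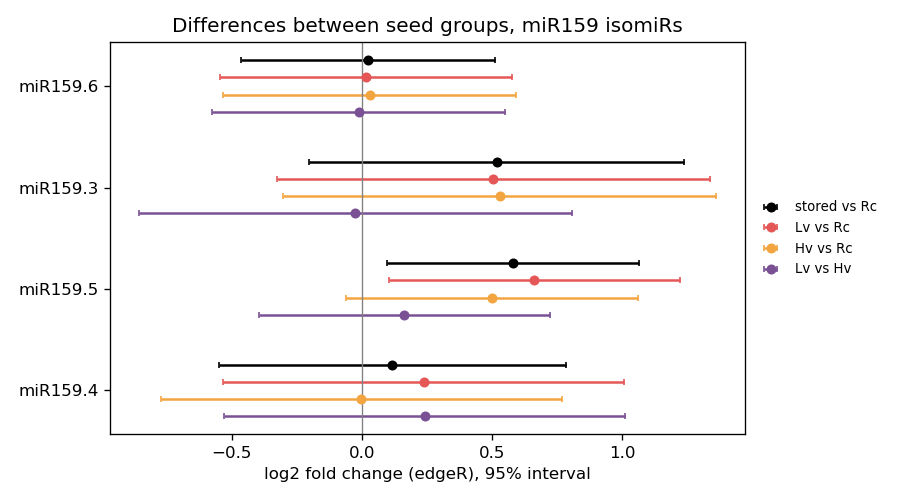
Log2 fold changes of the 4 tested isomiRs (x axis, edgeR with TMM, points) with 95% intervals (bars) in 4 comparisons. The intervals of miR159.5 in stored against Rc (0.10 to 1.06) and Lv against Rc (0.10 to 1.22) lie above 0 before adjustment, and all other intervals include 0.

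The make-up of the family, whose shares use neither library totals nor the counts of hvu-new80, was compared next. In Rc, miR159.6 made up 62.4%, 68.3% and 65.0% of the family's counts. In Lv it made up 49.7%, 57.3% and 61.4%, and in Hv 53.3%, 67.6% and 55.3%. All Lv libraries lay below Rc (exact permutation p = 0.1, the smallest possible for 3 against 3 libraries). Hv replicate 2 was the second highest of all 9 libraries. The mean was 65.2% ± 2.95 (SD, n = 3) in Rc and 57.4% ± 6.35 (SD, n = 6) in stored seeds, 7.82 percentage points lower (two-sided exact permutation p = 0.0952, adjusted p = 0.379 over 25 isomiRs).

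The share of miR159.5 was 9.85%, 9.84% and 11.4% for Rc, 21.0%, 11.6% and 12.4% for Lv and 14.8%, 12.9% and 11.8% for Hv. Every stored library lay above every Rc library. The highest shares were those of Lv replicate 1 and Hv replicate 1, the libraries with the fewest family counts (447 and 486), and the part of depth in them was not tested. The gap between the groups was narrow, since the 11.4% of Rc replicate 3 (95% Wilson interval 10.2 to 12.8%) and the 11.6% of Lv replicate 2 (10.0 to 13.5%) agree within counting error. The difference of the means was 3.72 percentage points (two-sided exact permutation p = 0.0833, adjusted p = 0.379 over 25 isomiRs). Without Lv replicate 1, which stood apart at 21.0% (95% Wilson interval 17.5 to 25.0%), it was 2.33 points (exact permutation p = 0.0357, unadjusted). That p was the lowest with 1 library left out. Leaving out any other library gave unadjusted exact permutation p-values from 0.0893 to 0.25. With counts pooled over the libraries of a group, which gives deep libraries more weight, the difference was 2.11 points. Within run 1, Hv replicates 1 and 2 stood 3.23 points above Rc replicates 2 and 3, too few libraries for a test.

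Of the 25 isomiRs of known families that could be compared in this way, 8% were higher in all stored libraries than in all Rc libraries, namely miR159.5 and miR5048.8, and 4% were lower, namely miR156.4. After adjustment 0% passed in stored against Rc and 0% in Lv against Hv. The smallest p that 6 libraries against 3 allow is 0.0119, so that an isomiR that alone reached it would have an adjusted p of 0.298. In Lv against Rc, miR159.5, miR166.6, miR5048.1 and miR5048.8 were higher in all Lv libraries, and miR156.4, miR156.6 and miR159.6 lower. Each had an exact permutation adjusted p of 0.357 over 25 isomiRs. Comparisons of 3 against 3 libraries, as Lv against Rc or Lv against Hv, allow no p below 0.1.

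For the other forms the groups overlap. miR159.3 made up 21.1%, 16.4% and 19.5% of the family for Rc, 23.5%, 26.0% and 21.1% for Lv and 26.3%, 15.9% and 28.3% for Hv. This is a difference of 4.51 points (exact permutation p = 0.190, adjusted p = 0.397). The share of miR159.4 was 5.25% ± 1.27 (SD, n = 3) for Rc, 5.30% ± 0.446 for Lv and 4.50% ± 1.07 for Hv, a difference of -0.35 points (exact permutation p = 0.655, adjusted p = 0.818). Between Lv and Hv, the share of miR159.5 differed by 1.84 points (exact permutation p = 0.9) and became -1.17 without Lv replicate 1.

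**Figure D3:**
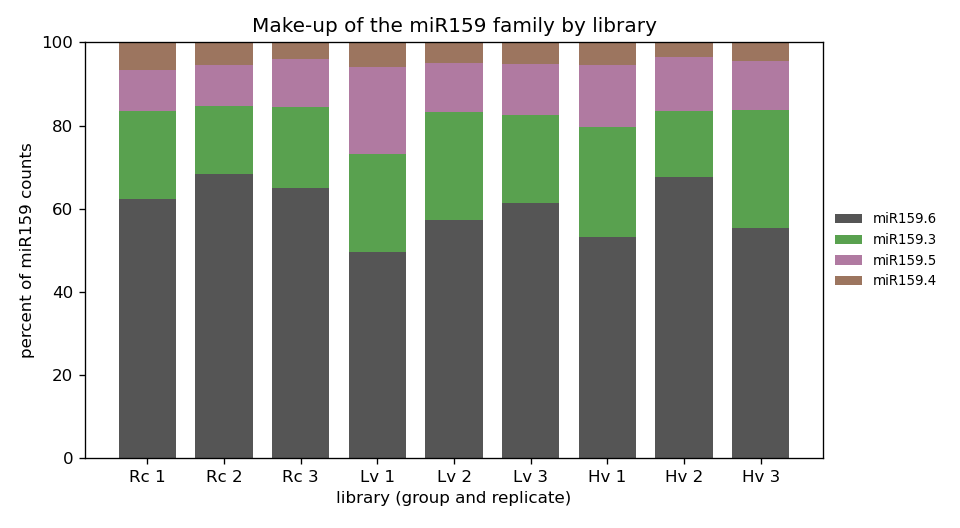
Percentage of the miR159 counts of each library (y axis) held by the 4 main isomiRs, as stacked bars, 1 bar per library. miR159.6 takes 62.4% to 68.3% in Rc and 49.7% to 67.6% in stored seeds, and the widest band of miR159.5 is in Lv replicate 1 (21.0%).

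Set against the full-length form, there were 0.158, 0.144 and 0.176 counts of miR159.5 per count of miR159.6 in Rc. The Lv libraries had ratios of 0.423, 0.203 and 0.202, those of Hv 0.278, 0.191 and 0.213. The groups do not overlap here either, which was so for 6.67% of 15 forms set against the most counted form of their family, that is for miR159.5 alone. On the log2 scale the difference was 0.60 (two-sided exact permutation p = 0.0595, adjusted p = 0.357 over 15 forms). The SD of the log2 ratio was 0.14 over the 3 Rc libraries, where counting alone gives 0.16, and 0.44 over the 6 stored libraries, where counting alone gives 0.15. The larger spread in stored seeds rests on Lv replicate 1, without which the SD was 0.21, a setting chosen after seeing the data. In stored seeds, counting is only a part of the SD, which also holds the spread between separate samples. In Rc, the SD was no larger than counting alone gives.

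The ratio of miR159.4 to miR159.6 was 0.103, 0.0796 and 0.0600 for Rc, 0.117, 0.0872 and 0.0831 for Lv and 0.104, 0.0504 and 0.0818 for Hv. Both miR159.4 and miR159.5 had their highest ratio in Lv replicate 1 and their second highest in Hv replicate 1. These are again the libraries with the fewest family counts. For miR159.4, however, Hv replicate 1 (0.104) was hardly above Rc replicate 1 (0.103). The ratio of miR159.3 to miR159.6 was 0.339, 0.241 and 0.300 for Rc, 0.473, 0.454 and 0.344 for Lv and 0.494, 0.236 and 0.513 for Hv. All Lv libraries lay above Rc (exact permutation p = 0.1 on the log2 scale, the smallest possible for 3 against 3 libraries). The highest value was in Hv replicate 3, not in a library with few family counts. Hv replicate 2 had the lowest value of the 9, as it did for miR159.4.

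**Figure D4:**
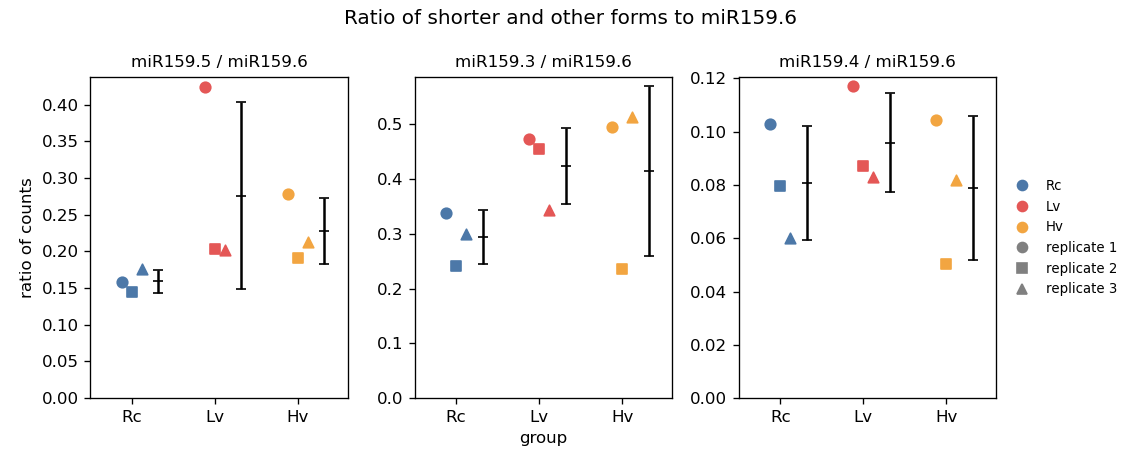
Counts of miR159.5, miR159.3 and miR159.4 per count of miR159.6 (y axes, from 0) in each library of the 3 groups (x axes). Points are libraries, and the dash with its bar is the mean ± SD of a group (n = 3). For miR159.5, Rc lies between 0.144 and 0.176 and stored seeds between 0.191 and 0.423, with Lv replicate 1 on top.

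Forms that lack 1 base at the 3′ end were compared with the full form in 4 other families. For miR166, which targets homeobox-leucine zipper transcription factors, the ratio of miR166.6 to miR166.7 was 0.0709 to 0.0970 in Rc, 0.103 to 0.107 in Lv and 0.0804 to 0.120 in Hv. On the log2 scale it was 0.28 higher in stored seeds (exact permutation p = 0.131, adjusted p = 0.393). For miR168, which targets the transcripts of ARGONAUTE1, the ratio of miR168.9 to miR168.10 was 0.533 to 0.950 in Rc and 0.176 to 0.786 in stored seeds, 0.70 lower (exact permutation p = 0.190, adjusted p = 0.476). In miR156, a regulator of SPL transcription factors, the shorter miR156.5 exceeded the 21-nt miR156.6, by 20.9 to 29.4 times in Rc, 37.6 to 94.0 times in Lv and 17.5 to 34.6 times in Hv. These ratios rest on 1 to 17 counts of miR156.6. miR5051.3 had at most 5 counts in a library. All Lv libraries lay above all Rc libraries in miR166 and miR156, as they did in miR159, while Hv overlapped Rc in both. In miR168 and miR5051 the Lv ratios overlapped those of Rc and had lower means. Of the 15 forms set against the most counted form of their family, miR159.3, miR159.5 and miR166.6 were higher in all Lv than in all Rc libraries. No form was lower in all of them. For 3 against 3 libraries, such a split has an exact permutation p of 0.1, the smallest possible. Differences between families were not tested.

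The miRNAs whose counts followed miR159.6 most closely were sought among 20 others with at least 1 count in all 9 libraries, a mean of at least 10 and no repeated counts, by the SD of the log2 ratio to miR159.6 over the 9 libraries. The smallest SD was that of miR166.7 (0.20, of which counting alone gives 0.10), followed by miR166.5 (0.22), hvu-new44 (0.26), hvu-new62 (0.27) and hvu-new74 (0.28). The values share library and depth. The isomiRs of miR159 itself were not among the closest. Their SD was 0.39 for miR159.4, 0.44 for miR159.3 and 0.47 for miR159.5, where counting alone gives 0.22, 0.12 and 0.15. Of the 20 others, 12 had a larger SD than miR159.4, and 7 a larger one than miR159.3 and miR159.5, up to 0.93.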

How the data were processed

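Small RNA libraries of dry barley embryos were prepared, sequenced and filtered by the authors, who counted known miRNAs against miRBase without mismatches and predicted others on the barley genome. The deposited table holds raw counts of 142 miRNAs in 9 columns, not normalized. Its 9 columns of normalized values, and the authors' own columns of fold change, statistics, p-values and dispersion for stored against regenerated seeds, were not used.

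From the counts, edgeR 4.0.16 in R 4.3.3 was fitted to all 9 libraries with 1 mean per group, TMM and the quasi-likelihood test, for the 99 miRNAs with at least 10 counts, with p-values adjusted after Benjamini and Hochberg and a threshold of 0.05. The standard errors follow from fitted means and the quasi-likelihood dispersion. DESeq2 1.42.0 was the alternative tool. Shares of a family per library and log2 ratios were compared with exact two-sided permutation tests of the difference in means. Scripts were tested on simulated data. The members, lists and tests were chosen with earlier results of these data known. Named miRNAs were all members, the 5 closest to miR159.6, and the pairs of 20-nt and 21-nt forms in 4 other families. miR5048.1, miR5048.8, miR156.4, hvu-new2 and hvu-new60 were named after their values were seen. Alternatives were other scalings and filters, the replicate block, run as a covariate and leaving out each library. The replicates are those of the labels, and p-values measure the spread between them.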

Additional observations from a re-analysis of the deposited data

Results flagged for a closer look

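Within the 6 stored libraries, 2 of 8 values examined had a library far from the others, where chance gives about 1 in 20, and they are not independent, as both involve miR159.5 and the same library. The share of miR159.5 in the family was 21.0% in Lv replicate 1, against 14.8% in the next library, a gap of 0.661 of the whole range. The ratio of miR159.5 to miR159.6 was 0.423 in Lv replicate 1, against 0.278 in the next, a gap of 0.626 of the range. Lv replicate 1 also had the fewest counts, 3966 in all and 447 in the family, and 94 of miR159.5. The part of depth in these values was not tested.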

How the results depend on the processing

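miR159.5 stayed higher in stored seeds than in Rc under 17 of 17 alternatives and passed the threshold only with DESeq2, and its share of the family stayed higher under 12 of 12, with no test of the pooled or run 1 values. For miR159.6, the log2 differences lie near 0 and their sign changed with the setting. For stored, Lv and Hv against Rc it was -0.050, -0.023 and -0.076 with known miRNAs only, -0.32, -0.36 and -0.27 with library sizes from mapped reads, -0.061, -0.042 and -0.081 with no filter, -0.080, -0.11 and -0.047 with predicted repeats left out, and -0.32, -0.48 and -0.17 with run as a covariate. With run as a covariate, miR159.3 was at -0.12 and miR159.4 at -0.12 in stored against Rc, at -0.43 and -0.19 in Lv against Rc, and miR159.4 and miR159.5 at -0.14 and -0.070 in Lv against Hv. With mapped reads, miR159.4 was at -0.23 in stored and -0.12 in Lv against Rc. For Lv against Hv, miR159.3 and miR159.6 turned to 0.088 and 0.075 with DESeq2, 0.086 and 0.071 with its size factors in edgeR, 0.10 and 0.053 with known miRNAs only, and 0.034 and 0.039 with no filter. None of these passed the threshold, and the cause was not tested. The share of miR159.3 in Lv less Hv became -1.04 points from pooled counts, and miR159.4 was 0.10 higher in stored seeds as a log2 ratio to miR159.6.

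Over all 99 miRNAs, edgeR called 0 in each comparison, with 10, 9, 6 and 5 at an unadjusted p under 0.05 in stored, Lv and Hv against Rc and Lv against Hv. DESeq2 called 3, 2, 1 and 0. With no filter edgeR called 2 in stored and 1 in Lv against Rc. Leaving out each library gave 0 to 1 calls in each comparison, miR159 isomiRs not among them. It gave log2 differences of -0.13 to 0.13 (stored against Rc), -0.14 to 0.22 (Lv against Rc), -0.22 to 0.18 (Hv against Rc) and -0.17 to 0.19 (Lv against Hv) for miR159.6, -0.067 to 0.30 (stored against Rc) and -0.32 to 0.20 (Hv against Rc) for miR159.4, and -0.32 to 0.43 (Lv against Hv) for miR159.3. In percentage points, it gave shares of -3.80 to 2.41 for miR159.3, -1.17 to 3.52 for miR159.5 and -5.37 to 1.80 for miR159.6 in Lv less Hv, and -1.02 to 0.23 for miR159.4 in stored seeds less Rc.

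The replicate numbers did not pair the samples, as same-numbered libraries correlated between -0.249 and 0.232 in their deviations from the group means. With the replicate block, edgeR called 0 in each comparison, miR159.5 was 0.60 higher in stored seeds (adjusted p = 0.450), miR159.6 was at -0.0051 in stored and -0.018 in Lv against Rc, and miR159.3 at 0.086 in Lv against Hv. Median log2 differences over all miRNAs were -0.19 in stored against Rc with edgeR and -0.031 with DESeq2. Depth limits miR159.1 and miR159.2 most, and for shares a count of 0 in the smallest library allows up to 0.852% of the family (95% Wilson interval).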
